A study of Mus musculus with 6 samples.

Results

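Macrophages are the resident phagocytes of the colon wall and gather in its tumours, and 10 genes widely used to recognise them were followed here: C1qa, C1qb, C1qc, Adgre1, Csf1r, Ms4a7, Mrc1, Cd163, Cd68 and Lyz2. They were taken by name from the 19938 genes that have a probe set annotated to a single gene symbol; all 10 were measured, each by 1 probe set. The samples were 6 mouse colon tumours, 3 from Dnmt1chip/c; ApcMin/+ mice (called hypomethylated) and 3 from Dnmt1chip/+; ApcMin/+ mice (called control). The chip allele of Dnmt1, the gene of the maintenance DNA methyltransferase, is hypomorphic and the c allele is a knockout, so all 6 tumours carried a chip allele and a Min allele of the tumour suppressor gene Apc, in a mixed C57BL/6 and 129Sv4 background. All mice received 2% (w/v) dextran sodium sulfate from 6 weeks of age, a compound that injures the colon and inflames it, and tumours were taken at 20 weeks. The alleles are in every cell of the mouse, macrophages included. Whether each tumour had its own mouse is not stated. The descriptions of all 3 hypomethylated tumours share 1 number. Those of control tumours 1 and 2 share another, and control tumour 3 has its own. The spread behind each p-value may therefore be in part technical or within a mouse. If the numbers are mice, all 3 hypomethylated tumours came from 1 mouse. A difference between genotypes then could not be told apart from a difference between mice.

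Macrophages in the colon are renewed from blood monocytes. Their growth and survival depend on CSF1 and IL34, which act through the receptor encoded by Csf1r, and their gene programme is set by the ETS-family transcription factor PU.1, the product of Spi1. They clear dead cells and debris through scavenger and complement receptors and digest them in lysosomes. In colitis and in colon tumours they are a source of C1q, of growth factors and of cytokines.

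Values are deposited as 1 number per probe set and array, taken as log2, and each probe set is centred on its median over the 6 tumours. They therefore show how a gene differs between tumours and give no level, so the genes are not ranked by abundance, and whether a marker is absent from these tumours cannot be read from them. The steps between values give a coarse hint of level: 8 of the 10 genes lie on the step that values of 8 or above before centring leave, against 50.7% of all genes, and the exceptions are Mrc1 and Cd163. Dnmt1 itself fell by 0.87 ± 0.06 (SE) on the log2 scale in the hypomethylated tumours (limma, adjusted p = 3.13e-04).

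Of the 10 genes, 9 had a lower mean in the hypomethylated tumours and 4 of these passed the test: C1qc, C1qb, Adgre1 and Ms4a7, at 1.58-fold to 1.92-fold lower values (limma fitted to all genes, with the Benjamini-Hochberg threshold set at 0.05). Calls were common in these tumours: the same test called 21.3% of all genes lower and 10.7% higher. The median difference of the 10 genes was -0.60 on the log2 scale, against -0.01 over all genes. All 3 hypomethylated tumours lay below all 3 control tumours in those 4 genes; of all genes 28.5% did so. The lower means came from 2 of the 3 hypomethylated tumours. Hypomethylated tumours 2 and 3 had means over the 10 genes of -0.74 and -0.45, whereas hypomethylated tumour 1 had 0.02, level with the -0.02 of control tumour 1; control tumours 2 and 3 had 0.13 and 0.42. These are bulk tumours, so fewer macrophages and less RNA of these genes per macrophage cannot be told apart.

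**Figure D1:**
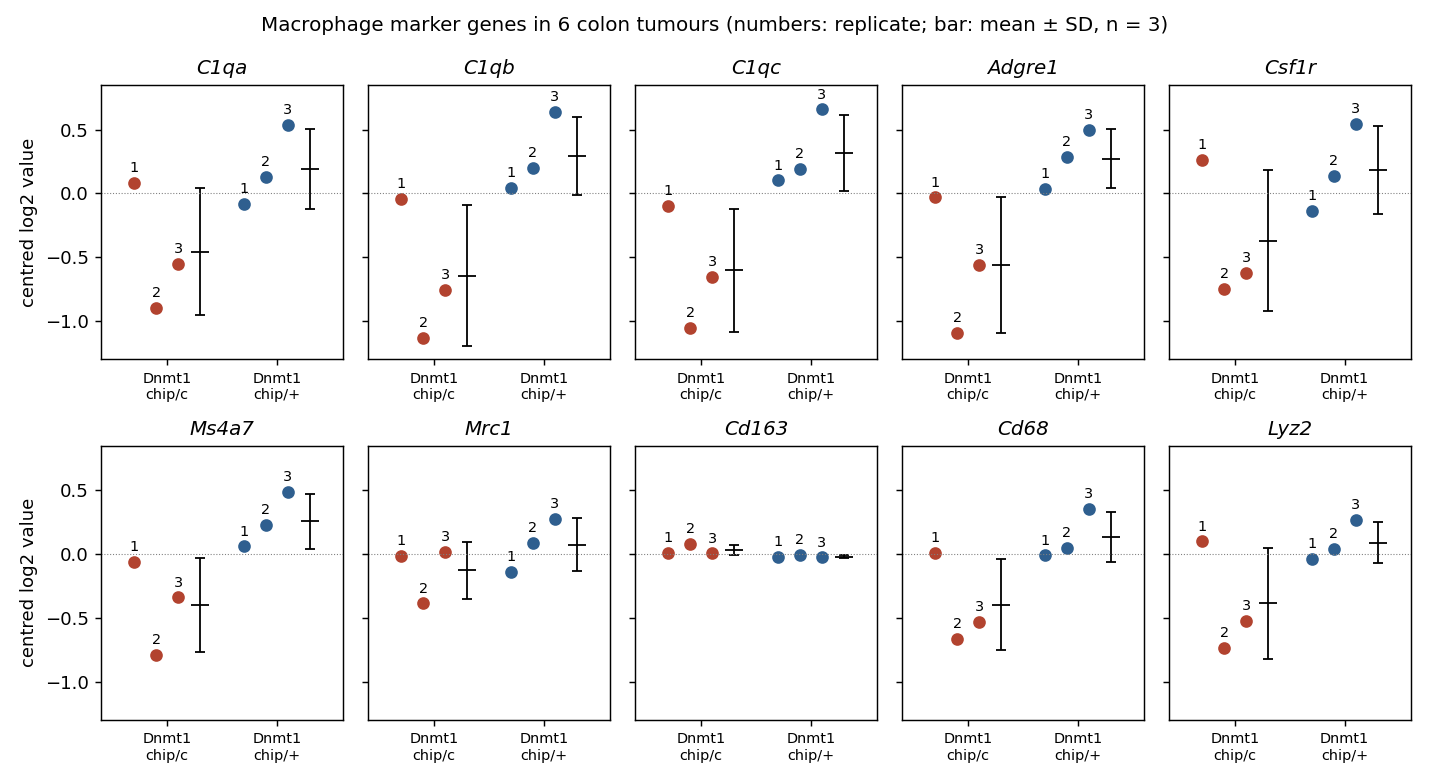
Centred log2 value (vertical axis) of each macrophage marker gene in the 3 hypomethylated (Dnmt1 chip/c, red, left) and 3 control (Dnmt1 chip/+, blue, right) tumours, numbered by replicate, with the mean and SD beside each group. Hypomethylated tumours 2 and 3 lie lowest in 8 of the 10 panels, in those 8 hypomethylated tumour 1 lies next to or among the controls, and Cd163 spans 0.11 in all.

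C1qa, C1qb and C1qc encode the 3 chains of C1q, the recognition unit of the classical complement pathway, which tissue macrophages make. C1qb had values of -0.04, -1.14 and -0.76 in hypomethylated tumours 1, 2 and 3, against 0.04, 0.20 and 0.64 in control tumours 1, 2 and 3. Hypomethylated tumour 1 fell short of control tumour 1 by only 0.09, while the other two lay far below every control. The difference was -0.94 ± 0.28 (SE), or 1.92-fold lower (limma, adjusted p = 0.0404). C1qc had values of -0.10, -1.06 and -0.66 in the hypomethylated tumours, against 0.10, 0.19 and 0.66 in the control tumours. It had the widest gap between the groups, 0.20, and fell by 0.92 ± 0.25 (SE), 1.89-fold (adjusted p = 0.0292). C1qa had values of 0.08, -0.90 and -0.56 in the hypomethylated tumours, against -0.08, 0.13 and 0.54 in the control tumours. Hypomethylated tumour 1 exceeded control tumour 1, so the groups overlapped, and the difference of -0.65 ± 0.26 (SE) did not pass (adjusted p = 0.103). The exact two-sided permutation test over the 20 assignments of 3 against 3 gave p = 0.1 for C1qb and C1qc, the smallest it can give, and p = 0.2 for C1qa. The calls of C1qb and C1qc were lost when any tumour other than hypomethylated tumour 1 was left out, with adjusted p between 0.0607 and 0.113 for C1qb and between 0.0502 and 0.0833 for C1qc. That of C1qb was also lost in limma with a block of the replicate number (adjusted p = 0.0690) and with robust eBayes (0.0582).

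The 3 C1q genes are neighbours on chromosome 4, in the order C1qb, C1qc, C1qa, with no annotated gene between them in RefSeq GRCm38.p6. Their values rose and fell together over the 6 tumours (Pearson r from 0.979 to 0.997 for the 3 pairs, given as a description). Sequence before the start of transcription is shown for C1qb and C1qc, the called members of the trio, from RefSeq promoters of GRCm38.p6; C1qa has none in the table used. The regions are the 250 bases before the start, chr4:136886201-136886450 for C1qb and chr4:136892915-136893164 for C1qc, both on the minus strand and written 5′ to 3′ in the direction of transcription, with matches to GAGGAA, a core of PU.1 sites, or its reverse complement TTCCTC in capitals.
C1qb: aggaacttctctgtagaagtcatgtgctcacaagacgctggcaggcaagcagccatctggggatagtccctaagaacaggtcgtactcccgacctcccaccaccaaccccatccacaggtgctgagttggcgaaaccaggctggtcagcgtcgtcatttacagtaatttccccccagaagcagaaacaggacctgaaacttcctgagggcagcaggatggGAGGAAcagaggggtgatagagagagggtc
C1qc: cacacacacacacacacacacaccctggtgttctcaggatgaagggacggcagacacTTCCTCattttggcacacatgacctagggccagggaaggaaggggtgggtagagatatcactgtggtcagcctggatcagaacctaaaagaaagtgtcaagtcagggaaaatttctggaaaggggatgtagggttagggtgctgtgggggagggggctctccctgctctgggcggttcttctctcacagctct
GAGGAA begins 30 bases before the start in C1qb, and TTCCTC, the same motif on the other strand, begins 193 bases before it in C1qc. The listed start of C1qc lies downstream of the annotated 5′ end of the gene, at 136892936. The last bases of its window are therefore inside the annotated gene. The motif was found on either strand in the same window of 4 of the 7 member genes with a listed promoter (C1qb, C1qc, Cd68 and Mrc1), and in 23.3% of 32851 promoters of all genes. A second motif, TGANTCA, the pattern bound by AP-1 factors, reads the same on both strands apart from its middle base; it was present in the windows of Cd68 and of 1 of the 2 starts of Ms4a7, and in 6.75% of all promoters.

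Adgre1 encodes F4/80, the adhesion G-protein-coupled receptor by which mouse macrophages are commonly stained; eosinophils also carry it. Its values were -0.03, -1.10 and -0.56 in the hypomethylated tumours, against 0.03, 0.28 and 0.50 in the control tumours. The groups were separated by 0.07, the narrowest gap among the 4 called genes, with hypomethylated tumour 1 and control tumour 1 next to each other. Adgre1 fell by 0.83 ± 0.26 (SE), 1.78-fold (limma, adjusted p = 0.0457), and the exact permutation p was 0.1. Its call was lost without any tumour other than hypomethylated tumour 1 (adjusted p from 0.0647 to 0.124). It was also lost after quantile normalization (adjusted p = 0.0524) and with arrays centred on their median (0.0533). The same held with probe sets of several genes (0.0502), a block of the replicate number (0.0786) and robust eBayes (0.0627).

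Csf1r encodes the receptor for CSF1 and IL34, the signal on which macrophages depend. Its values were 0.26, -0.75 and -0.63 in the hypomethylated tumours, against -0.14, 0.14 and 0.55 in the control tumours. Hypomethylated tumour 1 lay above 2 of the 3 control tumours, the largest overlap among the 10 genes at 0.40. The difference was -0.55 ± 0.29 (SE; adjusted p = 0.196). The ligand genes gave -0.17 ± 0.11 (SE) for Csf1 (adjusted p = 0.279) and 0.10 ± 0.13 for Il34 (adjusted p = 0.631), so neither passed. Spi1, the gene of PU.1, had values of 0.17, -0.78 and -0.46 in the hypomethylated tumours, against -0.14, 0.14 and 0.23 in the control tumours, the same order of tumours as Csf1r within each genotype. The difference of Spi1 was -0.43 ± 0.23 (SE, limma, adjusted p = 0.210), so it did not pass. Without hypomethylated tumour 1 it was -0.69 (adjusted p = 0.0124). That tumour was the highest of its genotype in Spi1, so leaving it out enlarges the difference by construction.

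Ms4a7 encodes a tetraspanning membrane protein found on mature macrophages. Its values were -0.06, -0.79 and -0.34 in the hypomethylated tumours, against 0.06, 0.23 and 0.49 in the control tumours. The groups did not overlap, with a gap of 0.12, and Ms4a7 fell by 0.66 ± 0.19 (SE), 1.58-fold (limma, adjusted p = 0.0384; exact permutation p = 0.1). The call was lost without any tumour other than hypomethylated tumour 1 (adjusted p from 0.0533 to 0.107), and also with a block of the replicate number (adjusted p = 0.063). The 250 bases before the farther upstream of its 2 listed starts, chr19:11336147-11336396 on the minus strand of GRCm38.p6 (RefSeq), hold neither motif and are shown for comparison with the C1q regions.
Ms4a7: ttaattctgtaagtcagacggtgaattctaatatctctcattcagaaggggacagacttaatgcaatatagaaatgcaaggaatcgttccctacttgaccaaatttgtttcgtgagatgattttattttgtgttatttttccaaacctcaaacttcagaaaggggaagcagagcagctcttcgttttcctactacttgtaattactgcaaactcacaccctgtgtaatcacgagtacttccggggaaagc

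Mrc1 and Cd163 encode endocytic receptors, the mannose receptor CD206 and the haemoglobin-haptoglobin scavenger receptor, that are used as markers of resident and alternatively activated macrophages; lymphatic endothelium also makes the mannose receptor. Mrc1 had values of -0.01, -0.39 and 0.01 in the hypomethylated tumours, against -0.14, 0.08 and 0.27 in the control tumours. Hypomethylated tumours 1 and 3 lay above control tumour 1, and the difference of -0.20 ± 0.14 (SE) did not pass (adjusted p = 0.339). Cd163 had values of 0.01, 0.08 and 0.01 in the hypomethylated tumours, against -0.03, -0.01 and -0.03 in the control tumours. The whole range was 0.11, and the difference of 0.05 ± 0.05 (SE) did not pass (adjusted p = 0.520), although the hypomethylated tumours all lay above the control tumours, as in 17.9% of all genes. Its SD stood at percentile 14.2 of all genes in the hypomethylated tumours and 2.30 in the control tumours. Cd163 also lay off the step that values of 8 or above before centring leave, a coarse hint of lower signal. With no level in the data beyond that hint, a probe set at the array's floor cannot be told from a steady one.

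Cd68 and Lyz2 stand for the digestive side of the cell: CD68 is a glycoprotein of the lysosomal membrane and lysozyme 2 the bacteria-degrading enzyme of macrophages, monocytes and neutrophils. Cd68 had values of 0.01, -0.67 and -0.53 in the hypomethylated tumours, against -0.01, 0.05 and 0.35 in the control tumours. Hypomethylated tumour 1 exceeded control tumour 1 by 0.02, and the difference of -0.53 ± 0.18 (SE), 1.44-fold lower, did not pass (adjusted p = 0.0693). Lyz2 had values of 0.10, -0.73 and -0.52 in the hypomethylated tumours, against -0.04, 0.04 and 0.27 in the control tumours. Only control tumour 3 lay above hypomethylated tumour 1, and the difference was -0.48 ± 0.21 (SE; adjusted p = 0.129). Lyz1, the close paralogue of Paneth cells whose transcript the Lyz2 probes could share, fell by 0.43 ± 0.11 (SE; adjusted p = 0.0213), with values of -0.31, -0.34 and -0.07 in the hypomethylated tumours, against 0.37, 0.07 and 0.12 in the control tumours. The 2 lysozyme genes thus ordered the tumours differently, Lyz1 being highest in control tumour 1. The call of Lyz1 was lost without control tumour 1 (adjusted p = 0.0659), hypomethylated tumour 1 (adjusted p = 0.0523) or hypomethylated tumour 2 (adjusted p = 0.0705).

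The spread among tumours of one genotype was wide for these genes. The SD over the 3 hypomethylated tumours had a median of 0.46 for the 10 genes, against a median of 0.10 over all genes, and the SD over the 3 control tumours had a median of 0.22, against 0.08 over all genes. In all 10 genes the SD was larger among the hypomethylated tumours. With the exception of Cd163 and Mrc1, each gene stood between percentiles 96.6 and 98.8 of all genes by its SD in the hypomethylated tumours. The order within each genotype was shared: hypomethylated tumour 2 was the lowest of all 6 tumours and control tumour 3 the highest in 9 of the 10 genes, all but Cd163. Control tumour 3 is the control tumour whose description number differs from that of the others.

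Leaving out hypomethylated tumour 1 raised the count of called markers. The other 2 hypomethylated tumours against the 3 control tumours gave 8 lower genes of 10 (limma, adjusted p from 0.00481 for C1qb to 0.0155 for Csf1r), where 21.4% of all genes were called lower; Mrc1 and Cd163 did not pass. C1qb then fell by 1.24 ± 0.20 (SE), Adgre1 by 1.10 ± 0.19, Csf1r by 0.87 ± 0.19 and Lyz2 by 0.72 ± 0.11. Hypomethylated tumour 1 was the highest of its genotype in the 8 called genes, so leaving it out enlarges their differences by construction. Leaving out any other single tumour gave 0 called members, with 4 to 6 at an unadjusted p under 0.05. That threshold was commonly met. In limma on all 6 tumours at least 8041 of the 19938 genes met it, and 6 of the 10 members.

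**Figure D2:**
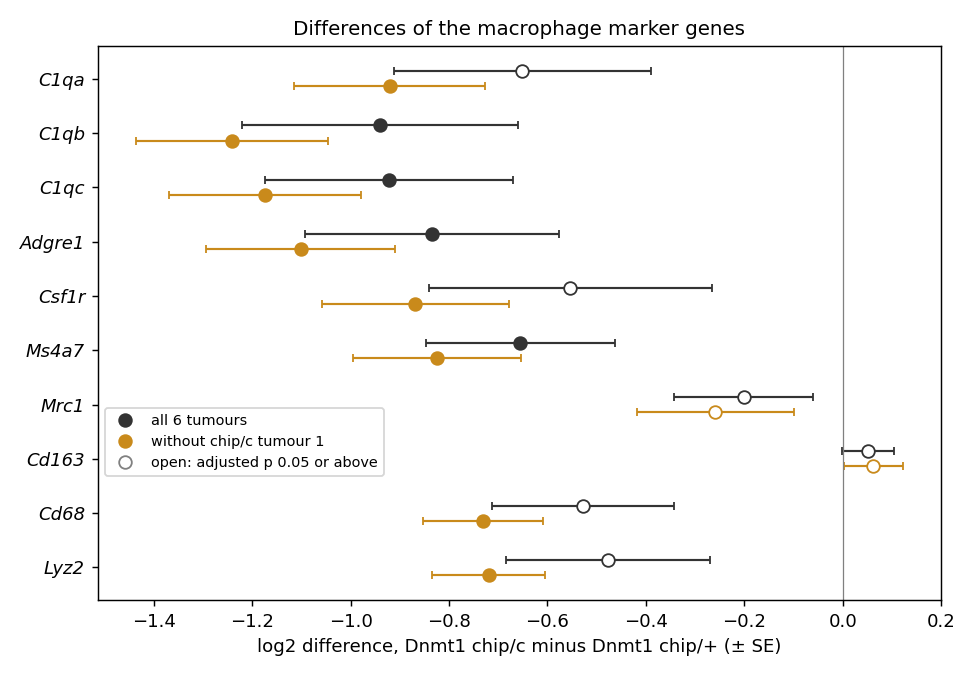
Log2 difference, hypomethylated minus control, with its SE for each macrophage marker gene (rows), in all 6 tumours (black) and without hypomethylated tumour 1 (ochre); filled points passed an adjusted p of 0.05. With all tumours 4 genes passed, and without hypomethylated tumour 1, 8 genes passed, all lower.

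**Figure D3:**
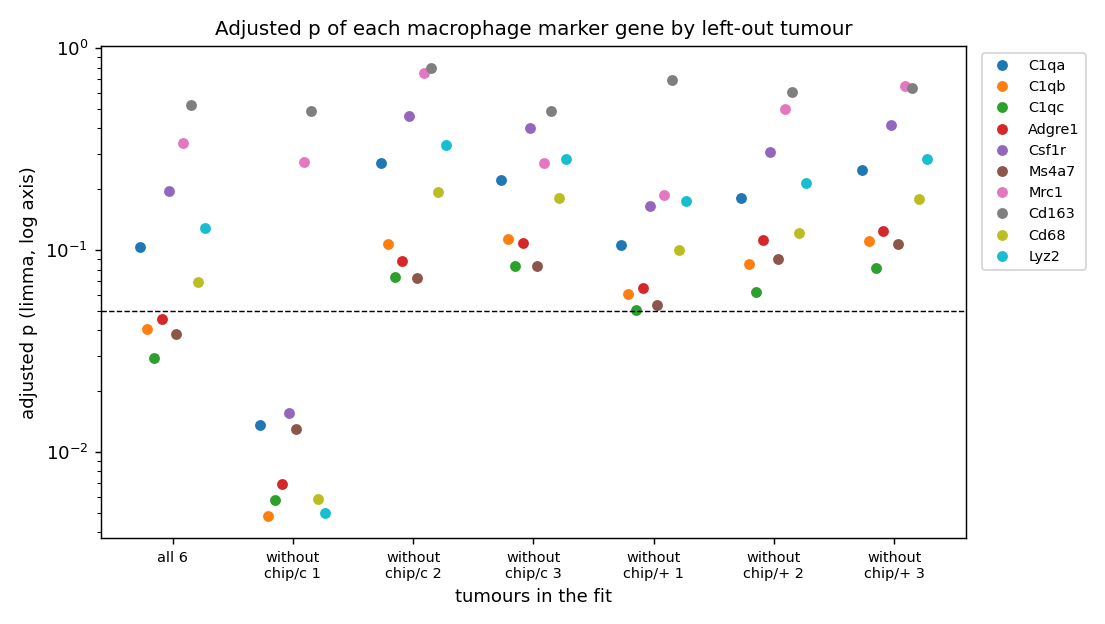
Adjusted p of each macrophage marker gene (log vertical axis, dashed line at 0.05) in the limma fit on all 6 tumours and in each fit that leaves out 1 tumour. Points below the line appear in the fit on all tumours (4 genes) and in the fit without hypomethylated tumour 1 (8 genes).

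The genes moved together from tumour to tumour. Over the 6 tumours the 28 pairs among the 8 genes other than Mrc1 and Cd163 had Pearson r from 0.91 to 1.00. Mrc1 had r from 0.76 to 0.87 with those 8, and Cd163 had r from -0.90 to -0.69 with the other 9, over a range of values that was small throughout. These 6 points share the genotype contrast and the tumour that sets the order, so r is given as a description only.

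**Figure D4:**
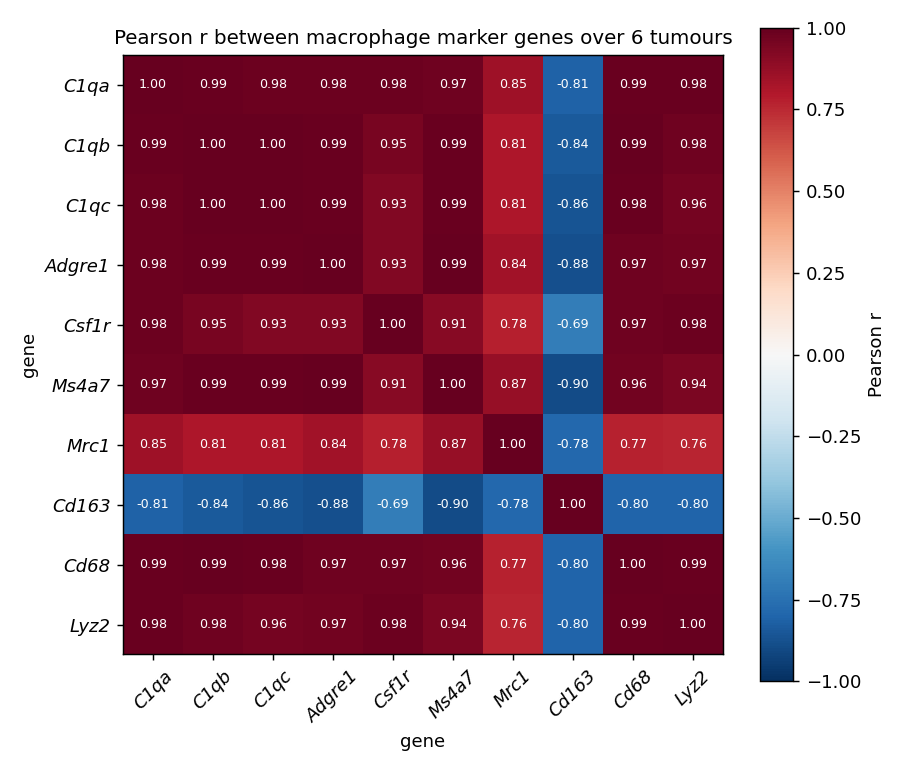
Pearson r between each pair of macrophage marker genes over the 6 tumours (colour scale from -1 to 1). The 8 genes other than Mrc1 and Cd163 correlate at 0.91 or above with each other, Mrc1 less, and Cd163 negatively.

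Outside the set, the 10 genes whose 6 values were most like the mean of the marker genes were Fcgr1, Pld4, Gpx3, Ly86, Sdc3, Serpina3n, Parvg, Lum, Olfml3 and Fxyd5, with Pearson r from 0.994 to 0.998. Fcgr1 encodes the high-affinity receptor for IgG of monocytes and macrophages, and Ly86 encodes MD-1, the partner of a toll-like receptor homologue on immune cells; Lum, the gene of lumican, is a fibroblast matrix gene. None of these 10 passed the test in limma (adjusted p from 0.0537 to 0.101), and their differences ran from -1.02 (Ly86) to -0.38 (Parvg). They were chosen by likeness to the marker mean over the same tumours, so these tests add nothing independent of the markers. Among the 19928 other genes 227, or 1.14%, had r over 0.95. With the genotype means taken out, the 5 most alike were Foxf1, Msr1, Limk1, Aif1 and C3ar1, with r from 0.997 to 0.998 over the 6 tumours. Of these Aif1 (IBA1, a macrophage and microglia marker), Msr1 (scavenger receptor A) and C3ar1 (receptor of the complement fragment C3a) are known myeloid genes. C3ar1 fell by 1.08 ± 0.27 (SE; adjusted p = 0.0207) and Msr1 by 0.85 ± 0.20 (adjusted p = 0.0164), while Aif1 differed by -0.22 ± 0.13 (adjusted p = 0.257). The call of C3ar1 was lost without control tumour 2, control tumour 3 or hypomethylated tumour 3 (adjusted p of 0.0539, 0.0600 and 0.0625), and that of Msr1 without hypomethylated tumour 3 (adjusted p = 0.0532).

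Calls among other genes of macrophage biology went both ways. Of 36 measured identity genes 4 were called lower and 4 higher, against 21.3% and 10.7% of all genes. Without hypomethylated tumour 1, 20 were called lower and 4 higher, where 4270 of all 19938 genes were called lower and 2323 higher. Most leaned down: 29 of the 36 had a negative difference, with a median of -0.34. At an unadjusted p under 0.05 in limma 8 were lower and 4 higher, where at least 8041 of all 19938 genes met that threshold. The interferon-linked myeloid factor Irf8 rose by 1.42 ± 0.11 (SE) and Plac8, which epithelial cells also make, by 2.18 ± 0.17, while the orphan nuclear receptor gene Nr4a1 fell by 0.95 ± 0.10 and Sparc, also on the fibroblast list, by 0.91 ± 0.15. Mertk (1.15 ± 0.19) and Cebpa (0.38 ± 0.09), named after their values were seen, were also called higher. Of 19 measured complement genes 5 were lower, among them C3ar1, Cd93 (-0.70) and the membrane attack inhibitor gene Cd59a (-0.80), and 2 higher, led by Cd55, the decay-accelerating factor (1.22). Of 21 scavenger receptor and lectin genes 4 were lower, with Hpgds of prostaglandin D2 synthesis at -1.81, Msr1, and Lyve1 at -0.78, and 1 higher, the coagulation factor gene F13a1 at 1.31; the call of Lyve1, also a lymphatic vessel marker, was lost without control tumour 1 or control tumour 2 (adjusted p of 0.0529 and 0.0538). Among 22 genes of macrophage activation 5 were lower, including Ptgs2 (-1.38), Il23a (-1.01) and Tgfb1 (-0.59), and 1, the interleukin-1 antagonist gene Il1rn (0.70), was higher.

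Counts for paralogues and partners of the markers are to be set against the 21.3% of all genes called lower and 10.7% called higher. An unadjusted p under 0.05 in limma was met by at least 8041 of all 19938 genes. Of 12 other measured Ms4a genes 4 rose in limma and none fell (2 were lower at an unadjusted p under 0.05): Ms4a12 by 2.53 ± 0.32 (SE) and Ms4a8a by 1.13 ± 0.14 moved most, and Ms4a1, the B cell gene of CD20, by 0.40 ± 0.09. The call of Ms4a1 was lost without control tumour 1 (adjusted p = 0.0538). MS4A12 is known as a surface protein of the colon epithelium in human. Of 21 lysosomal genes 7 were lower and 4 higher. Grn (-0.52) and Ctsl (-0.46) had the smallest p. Among the higher genes were Ctss at 0.64 ± 0.15 (SE, limma, adjusted p = 0.0154) and Ctsz at 0.33 ± 0.07 (adjusted p = 0.0140). The call of Ctsz was lost without control tumour 1 (adjusted p = 0.0614). The largest difference among the lysosomal genes was -1.56 ± 0.36 (SE, adjusted p = 0.0164) for Gpnmb, a glycoprotein gene of macrophages and other cells. Gpnmb and Ctss were named after their values were seen. The call of Gpnmb was lost without hypomethylated tumour 2 or hypomethylated tumour 3 (adjusted p of 0.0561 and 0.0580). Of 12 genes of the colony-stimulating factors, related growth factors and their receptors 1 was lower, Kitl (-0.42), and 2 higher, Csf2ra (0.84) and Flt3l (0.29). Of 15 monocyte-attracting chemokine and receptor genes none was lower in limma (3 at an unadjusted p under 0.05) and 2 were higher, Ccl9 (0.96) and Cx3cl1 (0.52), a share near that of all genes.

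Markers of other cells differed between the same tumours. Of 12 genes of all white blood cells none passed in limma. At an unadjusted p under 0.05, met by at least 8041 of all 19938 genes, 3 were lower. Without hypomethylated tumour 1, 8 were called lower, where 21.4% of all genes were. The mean of the 12 genes was 0.33, -0.52 and -0.34 in hypomethylated tumours 1, 2 and 3, against -0.06, 0.10 and 0.22 in the control tumours. Hypomethylated tumour 1 was thus the highest of the 6 in these genes, in B and plasma cell genes (mean 0.53, with -0.27 to 0.26 in the control tumours) and in T and NK cell genes (0.27, with -0.06 to 0.11). Leaving it out therefore lowers the mean difference of these lists by construction. Ptprc, the gene of the leukocyte antigen CD45, had values of 0.67, -0.36 and -0.30 in the hypomethylated tumours, against -0.10, 0.13 and 0.10 in the control tumours; without hypomethylated tumour 1 its difference was -0.37 (adjusted p = 0.0205). Of 15 fibroblast genes 10 were lower and 1 higher; their mean ran from -0.51 to -0.13 in the hypomethylated tumours, against 0.14 to 0.43 in the control tumours. Of 14 vessel genes 9 were lower and 1 higher, with means from -0.40 to -0.06 against 0.11 to 0.21, and of 13 epithelial genes 10 were higher and none lower in limma (1 lower at an unadjusted p under 0.05), with means from 0.23 to 0.42 against -0.30 to -0.24. Against the same 21.3% of all genes lower and 10.7% higher, the remaining lists had 2 lower and 1 higher of 15 neutrophil genes, 1 and 1 of 16 eosinophil and mast cell genes, 0 and 4 of 14 dendritic cell genes (none lower at an unadjusted p under 0.05), 1 and 0 of 18 T and NK cell genes, 0 and 1 of 13 B and plasma cell genes (1 lower at an unadjusted p under 0.05), 1 and 1 of 6 lysozyme genes and 1 and 2 of 7 Paneth cell genes. The part of these cells in the macrophage marker differences was not tested.

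**Figure D5:**
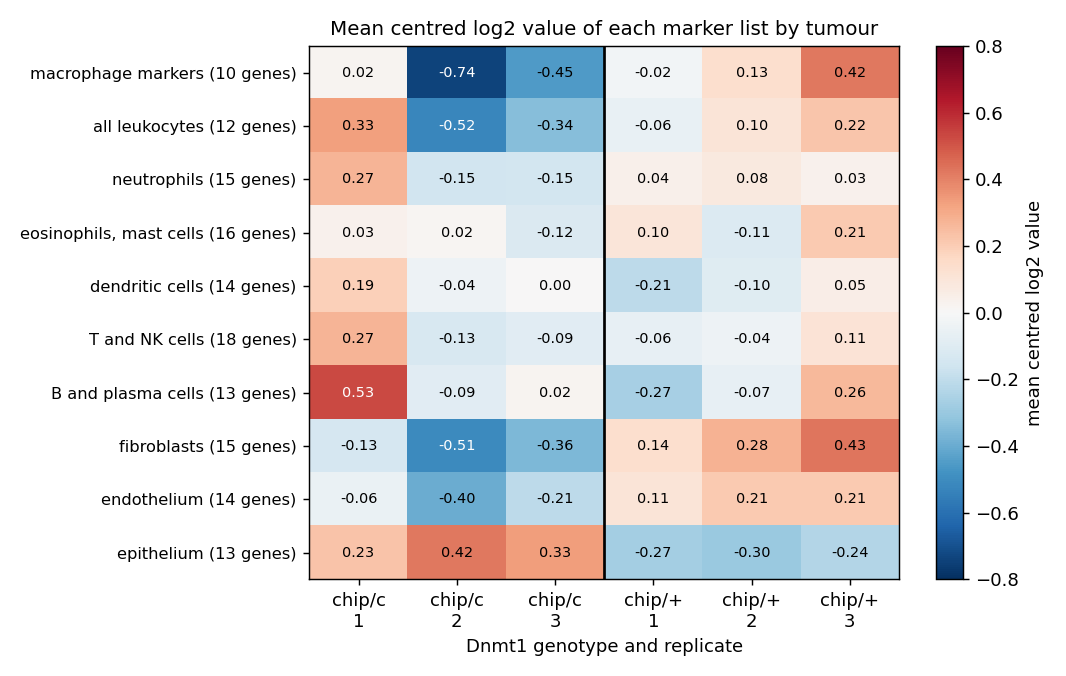
Mean centred log2 value of each marker list (rows, with the number of genes) in each tumour (columns; hypomethylated, Dnmt1 chip/c, left of the line, control, Dnmt1 chip/+, right). Hypomethylated tumour 1 has the highest mean of the general leukocyte list at 0.33 and a macrophage marker mean of 0.02, while fibroblast means are below 0 in all 3 hypomethylated tumours and above 0 in all 3 control tumours.

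With the leukocyte genes of the same tumour taken off, 7 rather than 4 of the markers separated the genotypes, but 0 passed in limma. When the mean of the 12 general leukocyte genes was taken off each tumour, a comparison added after the data were seen, 7 of the 10 markers were lower in all 3 hypomethylated tumours than in any control tumour: the 3 C1q genes, Adgre1, Ms4a7, Cd68 and Lyz2; of all genes 4.12% were. C1qb then had values of -0.37, -0.61 and -0.42 in the hypomethylated tumours, against 0.10, 0.10 and 0.41 in the control tumours. Lyz2 had -0.23, -0.21 and -0.18, against 0.02, -0.06 and 0.05. Hypomethylated tumour 1 no longer stood with the controls in these genes. This follows in part from the subtraction, which took 0.33 off hypomethylated tumour 1 and -0.06 off control tumour 1. The comparison was added after the data were seen, so the rise from 4 to 7 separated markers is not independent support for a difference. Each of the 7 had an exact permutation p of 0.1, the smallest possible, which any full separation of the groups gives. The share over all genes is low by construction, since a gene that does not follow the leukocyte genes takes on their spread. In limma the subtraction gave every gene the same SE, 0.30, and 0 of the 10 markers passed (2 at an unadjusted p under 0.05), where 1.05% of all genes were called lower; the median over all genes moved to 0.26, with that of the 10 markers at -0.33.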

How the data were processed

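RNA of 6 tumours was hybridised to Affymetrix arrays, per the labels' protocols. The authors deposited 1 table of log2 values (base inferred from the values) for 28856 probe sets, each centred on its median before deposit (100% of row medians within 1e-06 of 0). How arrays were normalized and summarised is not given in the sources used here. Of the probe sets 21789 carried 1 gene symbol (1621 several, 5446 none); these were averaged into 19938 genes, symbols updated through Entrez numbers to RefSeq GRCm38.p6. Groups follow the titles' genotypes. All genes were fitted with limma 3.58.1 (R 4.3.3; lmFit, eBayes without trend, two-sided, Benjamini-Hochberg, adjusted p under 0.05; 3.02 prior degrees of freedom). The code was tested on simulated data. The 10 genes and 19 other lists (297 genes measured, members included) were chosen with earlier results of these data known. Other genes were named by rule: up to 4 called genes with the smallest p in each list, 7 set genes, and those most like the marker mean. Gpnmb, Ctss, Mertk and Cebpa lie outside the rule and were named after their values were seen. Alternatives included leaving out each tumour and, added after the data were seen, subtracting the mean of 12 general leukocyte genes. Precision is limited by 6 arrays. Figures used matplotlib 3.10.9.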

Additional observations from a re-analysis of the deposited data

How the results depend on the processing

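The sign of each member's difference was kept under every alternative run, except that Mrc1 became 0.066 with the leukocyte mean taken off. The 4 calls, with 6380 genes called in all, were less stable. At an adjusted p under 0.01 there were 0 called members, 3511 called genes, and 24 lower and 21 higher genes of the other lists (48 and 41 at 0.05). With the replicate block 1 member, C1qc, was called (adjusted p = 0.0486), among 2714 lower genes and 4257 called in all. The labels do not say that the replicate numbers pair the tumours. Deviations of same-numbered tumours correlated at -0.29, -0.31 and -0.22. With so few tumours per genotype these values cannot settle whether the tumours were paired. With robust eBayes 2 members were called. With the leukocyte mean taken off, added after the data were seen, 0 members were called, with 1172 genes called (210 lower and 962 higher) and 6 lower genes of the other lists; the shared SE of that fit limits it. Leaving out 1 tumour gave 0 to 8 called members, 4199 to 6593 called genes, and 28 to 98 lower and 27 to 41 higher genes of the other lists. The remaining alternatives gave 3 to 5 called members: quantile normalization, arrays centred on their median, array weights, a random block of the description number (estimated correlation -0.17), genes with 1 probe set, probe sets of several genes, genes on the coarser step and a threshold of 0.1. No description number spans both genotypes, and all 3 hypomethylated tumours share 1. The random block therefore cannot separate a difference between mice from one between genotypes. Ptprc changed sign: 0.0092 with array weights, 0.045 after quantile normalization, 0.23 with the leukocyte mean taken off, 0.0036, 0.14 and 0.11 without control tumour 2, hypomethylated tumour 2 and hypomethylated tumour 3, with -0.37 without hypomethylated tumour 1 (adjusted p = 0.0205). Csf1 became 0.093 with the leukocyte mean taken off. The cause of these changes was not tested. A filter at the 25th percentile of signal could not be run on centred values, and signal over background is unknown.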
